A study of Mus musculus with 9 samples.

Results

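The tumor necrosis factor (TNF) ligand and receptor superfamily was examined in ST2 cells, a mouse bone marrow stromal cell line that can be driven toward osteoblasts. Members were the protein-coding genes whose symbols begin with Tnfsf or Tnfrsf and a number, together with Tnf, Lta, Ltb, Ltbr, Fas, Ngfr and Cd40, and without Tnfsf11, Tnfrsf11b and Tnfrsf19. The rule took 35 genes (13 ligands and 22 receptors) from a table of 54532 genes, 22046 of them protein-coding. It used no measured value, but the members were chosen with earlier results of these data known. Poly(A) RNA of wild-type ST2 cells was sequenced in 9 libraries at 72 h: 3 of vehicle-treated cells (Veh), 3 of cells given 50 ng/ml recombinant human Wnt3a (rhWnt3a), and 3 titled rhWnt3aOSMI. OSMI inhibits O-GlcNAc transferase (OGT), the enzyme that places O-linked N-acetylglucosamine on proteins, and was used at 20 μM. For the last group the treatment label and the sequencing methods of the study name OSMI without rhWnt3a, while the titles and the results text of the study add rhWnt3a. These libraries are treated here as rhWnt3a with OSMI. The comparisons ask which members changed with rhWnt3a and which changed when OSMI was added. ST2 is a single line. The study calls the libraries of a group biological replicates, the labels do not say what separated them, and the p-values measure the spread between these libraries.

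TNF superfamily ligands are mostly trimeric membrane proteins that can be shed by proteases, and their receptors have cysteine-rich outer domains. One class of receptors carries a death domain and can start apoptosis through caspase-8. Others recruit TRAF adaptors and activate NF-kB, either by the canonical route through IKK and the inhibitor IkBα or by the non-canonical route through p100 (Nfkb2) and RelB. A further class lacks signaling parts and acts as decoys. In bone, members of the family control osteoclast formation and the inflammatory output of stromal cells.

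The libraries held 16135898 to 17583945 counts. Veh replicate 3, rhWnt3a replicate 2 and rhWnt3aOSMI replicate 3 each lay apart from the rest of their group. An axis holding 54.8% of the variance within groups placed Veh 1, Veh 2, rhWnt3a 1, rhWnt3a 3 and rhWnt3aOSMI 3 on one side and the other 4 libraries on the other, and the labels name no batch that matches it. Axin2, a direct Wnt target used to check the labels, had 4, 14 and 10 counts in Veh, 355, 296 and 315 in rhWnt3a, and 203, 185 and 297 in rhWnt3aOSMI. The labeled stromal identity was checked with 10 genes, whose summed level was 20670 to 27296 CPM (counts scaled to a common library size after TMM normalization) in Veh, 17275 to 20386 in rhWnt3a and 8842.5 to 17253 in rhWnt3aOSMI, although Thy1 and Lepr had at most 4 counts in every library. Of 13 leukocyte markers 9 had at most 3 counts in every library, among them Ptprc, Cd3e and Ms4a1, and the sum of the list was 6.72 to 11.3 CPM in Veh, 2.81 to 3.35 in rhWnt3a and 1.22 to 4.84 in rhWnt3aOSMI. Of 5 endothelial markers 2 had at most 3 counts in every library, and the sum of the list was 1.70 to 2.80 CPM in Veh, 0.243 to 0.479 in rhWnt3a and 0.484 to 0.746 in rhWnt3aOSMI. Emcn, the endothelial marker that was tested, had 19, 34 and 22 counts in Veh, none in rhWnt3a and 0, 2 and 0 in rhWnt3aOSMI. The part of these marker shifts in the results that follow was not tested. In bulk RNA, fewer cells of a type and less RNA per cell cannot be told apart.

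Levels of different genes were compared on the deposited FPKM values, which are scaled by gene length. The most abundant members were receptors. Ltbr, the lymphotoxin β receptor, averaged 70.6 FPKM over the 9 libraries, Tnfrsf12a, the receptor for TWEAK, averaged 68.7 FPKM, and Tnfrsf1a, the death domain receptor for TNF, averaged 64.9 FPKM. The ligands of highest mean level were Tnfsf9 at 4.61 FPKM, Tnfsf12 at 3.81 FPKM and Tnfsf15 at 1.30 FPKM. In all, 18 members (5 ligands and 13 receptors) passed the filter on low counts and were tested, and 17 did not. Of the latter, 6 had no count in any library: the ligand Tnfsf4 and the receptors Tnfrsf8, Tnfrsf11a, Tnfrsf13b, Tnfrsf17 and Ngfr. A count of 0 allows a level of up to 3 counts, or 0.171 to 0.186 CPM depending on the library, and this limit covers counting error only.

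**Figure D1:**
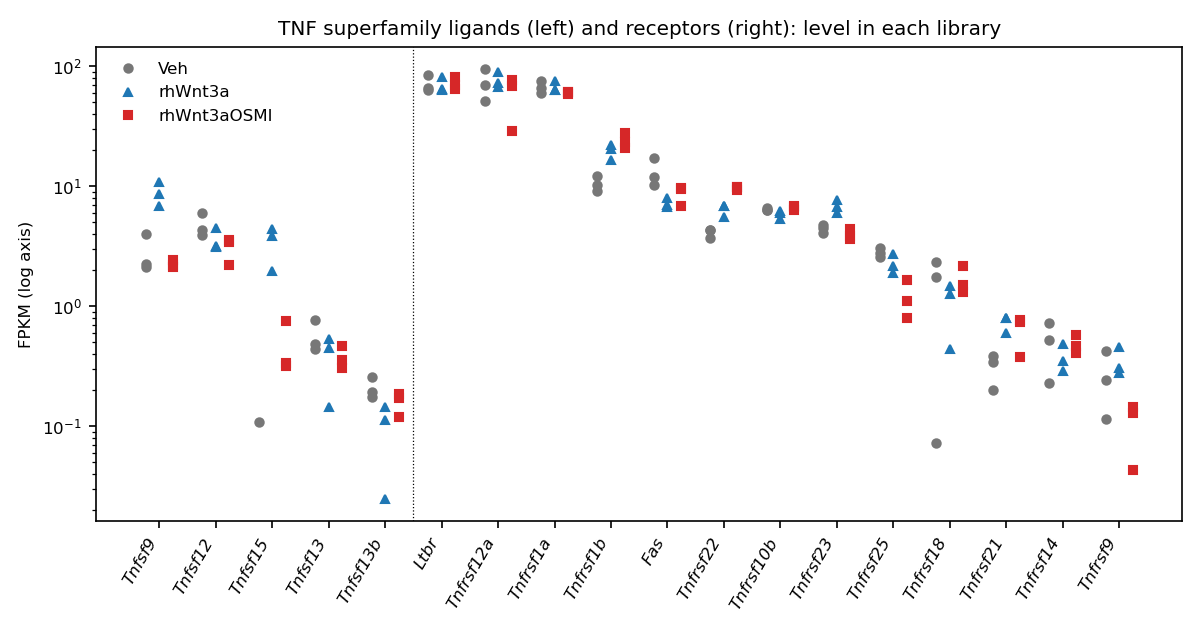
Deposited FPKM (log axis) of the 18 tested members in each of the 9 libraries, ligands left of the dotted line and receptors right of it, ordered by mean level; a point is 1 library and values of 0 (Tnfsf15 in Veh 2 and Veh 3) are not drawn. Ltbr, Tnfrsf12a and Tnfrsf1a lie above the other members, and Tnfsf15 is the gene whose Veh and rhWnt3a points lie farthest apart.

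The 3 most abundant receptors were not called in any comparison. A member was called when edgeR's quasi-likelihood test gave a Benjamini-Hochberg adjusted p under 0.05 over all 14004 tested genes and the log2 fold change was beyond 0.5. Ltbr was at 150, 155 and 202 CPM in Veh, 154, 192 and 154 CPM in rhWnt3a, and 167, 156 and 189 CPM in rhWnt3aOSMI, so the 3 groups overlapped. Tnfrsf1a was at 155, 173 and 201 CPM in Veh, 169, 195 and 169 CPM in rhWnt3a, and 156, 162 and 158 CPM in rhWnt3aOSMI. The log2 fold changes with rhWnt3a were −0.02 ± 0.16 (SE) for Ltbr and 0.01 ± 0.13 for Tnfrsf1a. Tnfrsf12a was at 99.4, 137 and 189 CPM in Veh, 132, 173 and 143 CPM in rhWnt3a, and 153, 136 and 55.5 CPM in rhWnt3aOSMI. The low value is that of rhWnt3aOSMI replicate 3, one of the libraries lying apart. The log2 fold change of Tnfrsf12a when OSMI was added was −0.38 ± 0.35, and was 0.07 without the library lying apart in each group. With the side of the axis as a term it was −0.74, which made it a call (edgeR adjusted p = 0.0143). That term raised the calls over all 14004 tested genes from 664 to 4033. Its ligand Tnfsf12 was at 6.54, 6.05 and 9.27 CPM in Veh, 4.87, 6.88 and 4.97 CPM in rhWnt3a, and 3.45, 5.57 and 5.19 CPM in rhWnt3aOSMI, with a log2 fold change of −0.62 ± 0.26 for rhWnt3aOSMI against Veh (edgeR adjusted p = 0.134). Tnfsf12 and Tnfsf13 overlap the readthrough gene Tnfsfm13, to which 50.7% and 56.7% of their transcripts were near-identical, so reads may be divided among these genes.

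With rhWnt3a, 6 of the 18 tested members were called, against 8.78% of all tested genes. Of these 5 rose, against 2.92% of tested genes called higher: the ligands Tnfsf15 and Tnfsf9 and the receptors Tnfrsf1b, Tnfrsf22 and Tnfrsf23. The death receptor Fas fell, 1 member against 5.86% of tested genes called lower. The median log2 fold change was −0.01 over the tested members and 0.04 over all tested genes. When OSMI was added to rhWnt3a, 4 members were called against 4.74% of tested genes. Tnfrsf22 rose further (1 member against 1.69% of genes called higher), and Tnfsf15, Tnfsf9 and Tnfrsf23 fell (3 members against 3.05% called lower). Between rhWnt3aOSMI and Veh 4 members were called against 14.2% of tested genes, with Tnfsf15, Tnfrsf1b and Tnfrsf22 higher (3 against 4.84%) and Tnfrsf25 lower (1 against 9.34%). Tnfsf15, with 6, 0 and 0 counts in Veh, passed the count filter only through the other groups, where it was high. Its part in the counts called higher against Veh is therefore not support for a rise of the family. A filter of at least 10 counts in every library left 12 members. Of these 5 were called with rhWnt3a, 4 of them higher, against 976 of 12005 genes, 339 of them higher. These 3 comparisons share libraries and are not independent of each other. In all, 7 members were called in at least 1 comparison and 11 in none, and Tnfsf15 and Tnfrsf22 were called in all 3. The count with rhWnt3a was 3 instead of 6 without Veh replicate 1, without rhWnt3a replicate 1 or without rhWnt3a replicate 3. Over all tested genes these fits called 761, 716 and 724 instead of 1230. The count for OSMI addition was 1 instead of 4 without rhWnt3a replicate 1, rhWnt3a replicate 3, rhWnt3aOSMI replicate 1 or rhWnt3aOSMI replicate 2. There the calls over all tested genes were 277, 217, 240 and 203 instead of 664.

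**Figure D2:**
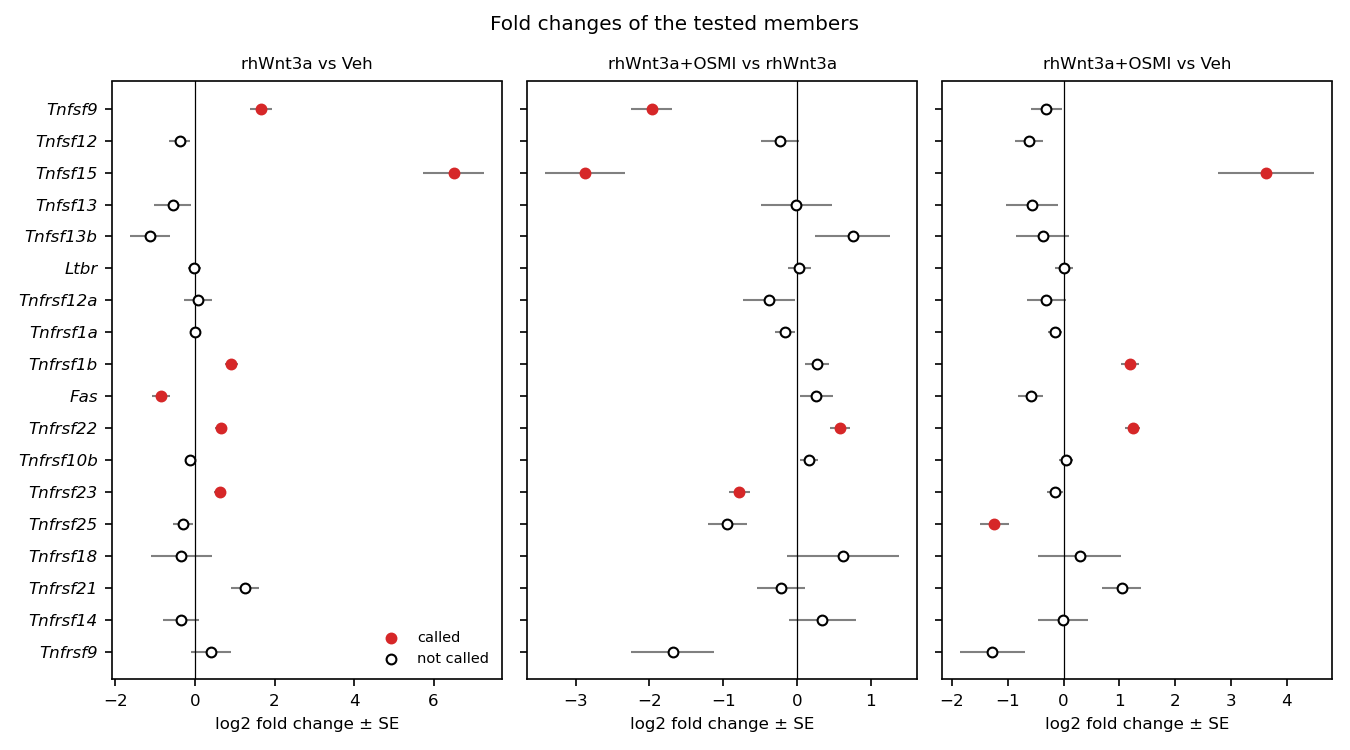
Log2 fold change (x axis) with its standard error (bars) for each of the 18 tested members in the 3 comparisons, from the edgeR fit of 9 libraries; red points are called and open points are not. Tnfsf9 and Tnfsf15 lie to the right with rhWnt3a and to the left when OSMI is added, and the x axes differ between panels.

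Among the ligands, Tnfsf15 (TL1A, which engages the death domain receptor Tnfrsf25 and co-stimulates lymphocytes) had the largest change. The gene lies on chromosome 4 at 63727084 to 63745113, minus strand, in the mm10 build of the table. It had 6, 0 and 0 counts in Veh (0.366, 0 and 0 CPM), 217, 117 and 253 counts in rhWnt3a (13.2, 6.65 and 15.1 CPM), and 19, 19 and 43 counts in rhWnt3aOSMI (1.15, 1.09 and 2.51 CPM). The 3 groups did not overlap, and rhWnt3aOSMI lay between the others. Means were 0.122 ± 0.212, 11.7 ± 4.45 and 1.58 ± 0.801 CPM (SD, n = 3). The fitted log2 fold change was 6.51 ± 0.76 with rhWnt3a (edgeR adjusted p = 5.69e-04) and −2.87 ± 0.54 when OSMI was added (edgeR adjusted p = 0.0184), and rhWnt3aOSMI stayed above Veh by 3.63 ± 0.86 (edgeR adjusted p = 0.0192). Because 2 Veh libraries held no count, the size against Veh is poorly fixed: it ran from 5.91 to 10.6 over the fits that left out 1 library, the highest being without Veh replicate 1. The OSMI call was lost without rhWnt3a replicate 1, rhWnt3a replicate 3, rhWnt3aOSMI replicate 1 or rhWnt3aOSMI replicate 2, at edgeR adjusted p of 0.0609 to 0.0856, and the call against Veh was lost without Veh replicate 2 or Veh replicate 3, at edgeR adjusted p of 0.0535 to 0.0617.

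The promoter of Tnfsf15, a strongly raised ligand, is shown beside those of the lowered receptors Fas and Tnfrsf25. Fas was called lower with rhWnt3a, whereas Tnfrsf25 was called lower only for rhWnt3aOSMI against Veh. Each window runs from 250 bases before to 50 bases after the RefSeq start site (GRCm38.p6, 5′ to 3′ on the strand of the gene). Letters in capitals match CTTTGA (the core of TCF and LEF sites), GGGNNTTTC (part of NF-kB sites) or TGANTCA (AP-1) on either strand. Tnfsf15 lies at chr4:63745010-63745309, minus strand, Fas at chr19:34290409-34290708, plus strand, and the upstream one of the 2 listed Tnfrsf25 promoters at chr4:152115684-152115983, plus strand.
Tnfsf15: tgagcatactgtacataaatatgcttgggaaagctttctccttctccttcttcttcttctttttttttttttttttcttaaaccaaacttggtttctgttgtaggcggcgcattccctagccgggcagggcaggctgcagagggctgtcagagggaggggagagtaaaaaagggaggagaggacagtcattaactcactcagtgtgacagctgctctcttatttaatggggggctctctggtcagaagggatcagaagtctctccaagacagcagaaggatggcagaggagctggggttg
Fas: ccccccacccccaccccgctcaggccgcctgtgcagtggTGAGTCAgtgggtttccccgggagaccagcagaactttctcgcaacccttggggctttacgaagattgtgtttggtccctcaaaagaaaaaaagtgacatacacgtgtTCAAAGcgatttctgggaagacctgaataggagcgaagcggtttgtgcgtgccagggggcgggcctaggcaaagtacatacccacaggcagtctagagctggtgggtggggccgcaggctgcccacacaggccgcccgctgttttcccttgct
Tnfrsf25: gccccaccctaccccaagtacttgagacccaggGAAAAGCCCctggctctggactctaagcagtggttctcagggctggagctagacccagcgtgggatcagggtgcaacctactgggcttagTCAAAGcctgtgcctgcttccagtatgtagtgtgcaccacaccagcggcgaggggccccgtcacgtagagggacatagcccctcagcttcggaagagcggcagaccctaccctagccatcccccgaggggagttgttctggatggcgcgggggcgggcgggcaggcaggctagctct
The Tnfsf15 window held none of the 3 letter patterns, and neither did the promoters of Tnfrsf1b and Tnfrsf23, which also rose with rhWnt3a. No promoter was found for Tnfsf9 and Tnfrsf22, the other members that rose with it. The Fas window held TGANTCA starting 211 bases before the start site and CTTTGA starting 103 bases before it, the latter on the opposite strand. The Tnfrsf25 window held GGGNNTTTC starting 217 bases before and CTTTGA starting 127 bases before the start site, both on the opposite strand. It is printed because it holds these matches, and the other listed Tnfrsf25 promoter held none. Of the 32851 promoters of the RefSeq table, 16% held CTTTGA, 4.36% held GGGNNTTTC and 7.81% held TGANTCA. Promoters were found for 28 of the 35 members: 5 genes held CTTTGA (Tnfrsf9, Tnfrsf25, Tnfrsf13b, Tnfsf13 and Fas), 4 held GGGNNTTTC (Tnfrsf9, Tnfrsf25, Tnfrsf17 and Ltb) and 6 held TGANTCA (Tnfrsf8, Tnfrsf9, Tnfsf13b, Tnfsf13, Tnfsf14 and Fas). A match describes letters only, and the absence of one says nothing of binding elsewhere.

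Tnfsf9 (4-1BBL, the ligand of the T cell co-stimulatory receptor Tnfrsf9) lies on chromosome 17 at 57105325 to 57107757, plus strand. It was at 2.75, 2.93 and 5.26 CPM in Veh, at 9.13, 14.2 and 11.5 CPM in rhWnt3a, and at 2.90, 3.21 and 2.74 CPM in rhWnt3aOSMI. All rhWnt3a libraries lay above every library of the other groups, and Veh and rhWnt3aOSMI overlapped. The log2 fold change was 1.66 ± 0.27 with rhWnt3a (edgeR adjusted p = 0.00404) and −1.97 ± 0.28 when OSMI was added (edgeR adjusted p = 0.00537). Both calls were kept in every alternative analysis run. The gene overlaps the lincRNA Gm11110 on the opposite strand, which covers 14.9% of its transcript and had 26, 29 and 45 counts in Veh, 66, 97 and 56 in rhWnt3a and 32, 19 and 22 in rhWnt3aOSMI. The strand setting of the counting is not given in the sources used here, so reads of the overlapping bases could belong to either gene.

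The other tested ligands, Tnfsf13 (APRIL) and Tnfsf13b (BAFF), survival factors for B cells, were low and not called. Tnfsf13 averaged 0.934 ± 0.296, 0.627 ± 0.341 and 0.626 ± 0.122 CPM (SD, n = 3) in Veh, rhWnt3a and rhWnt3aOSMI. Tnfsf13b was at 1.77, 1.21 and 1.36 CPM in Veh, 0.791, 0.171 and 1.02 CPM in rhWnt3a and 1.21, 1.32 and 0.816 CPM in rhWnt3aOSMI, with a log2 fold change of −1.13 ± 0.50 with rhWnt3a (edgeR adjusted p = 0.241). Their receptors Tnfrsf13b, Tnfrsf13c and Tnfrsf17 had at most 1 count in any library.

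Of the 13 ligands 8 failed the filter. Tnf itself, the founding cytokine, had at most 1 count in any library, Ltb at most 3 and Tnfsf14 at most 2. Lta had 10, 6 and 7 counts in Veh, 5, 3 and 1 in rhWnt3a, and 6, 7 and 13 in rhWnt3aOSMI. Tnfsf18 ranged from 0 to 11 counts with overlapping groups. Thus transcripts of the receptors Tnfrsf1a, Tnfrsf1b and Ltbr were well detected where those of their ligands were at or near the detection limit.

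Tnfsf10 (TRAIL, a ligand that kills through death receptors) had 7, 9 and 6 counts in Veh, none in the 3 rhWnt3a libraries, and 0, 0 and 1 in rhWnt3aOSMI. The Veh libraries lay above all others. Set against a floor of 3 counts per library, its Veh mean of 0.447 CPM was at least 2.52-fold higher than rhWnt3a. The gene was not tested in the main fit, and without the count filter edgeR gave an adjusted p of 0.0076 for rhWnt3a against Veh and 0.0274 for rhWnt3aOSMI against Veh. Tnfsf8 (CD30 ligand), the neighbor of Tnfsf15 on chromosome 4 at 63831308 to 63861347, had no count in Veh, 6, 1 and 4 counts in rhWnt3a, and 0, 0 and 2 in rhWnt3aOSMI (edgeR adjusted p = 0.14 without the filter for rhWnt3a against Veh). Both genes of this pair were highest in rhWnt3a, but the counts of Tnfsf8 are too few to say more.

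Among the receptors, Tnfrsf1b (TNFR2, a TNF receptor without a death domain that recruits TRAF2) rose with rhWnt3a and stayed high with OSMI. It lies on chromosome 4 at 145213463 to 145246870, minus strand. It was at 34.6, 39.9 and 47.3 CPM in Veh, at 85.5, 64.3 and 79.7 CPM in rhWnt3a, and at 90.8, 81.8 and 105 CPM in rhWnt3aOSMI. Every library with rhWnt3a lay above every Veh library, while rhWnt3a and rhWnt3aOSMI overlapped. The log2 fold change was 0.91 ± 0.17 with rhWnt3a (edgeR adjusted p = 0.0071) and 1.19 ± 0.17 for rhWnt3aOSMI against Veh (edgeR adjusted p = 0.00136). The difference on adding OSMI was 0.28 ± 0.17 (edgeR adjusted p = 0.342). Within the sides of the axis the log2 difference with rhWnt3a was 1.15 and 0.44, and both calls against Veh were kept in all 18 alternatives. Deposited levels moved from 10.5 ± 1.54 to 19.6 ± 2.65 and 23.9 ± 3.54 FPKM (SD, n = 3), against a range of 60.3 to 67.2 FPKM in the group means of Tnfrsf1a, the other TNF receptor.

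**Figure D3:**
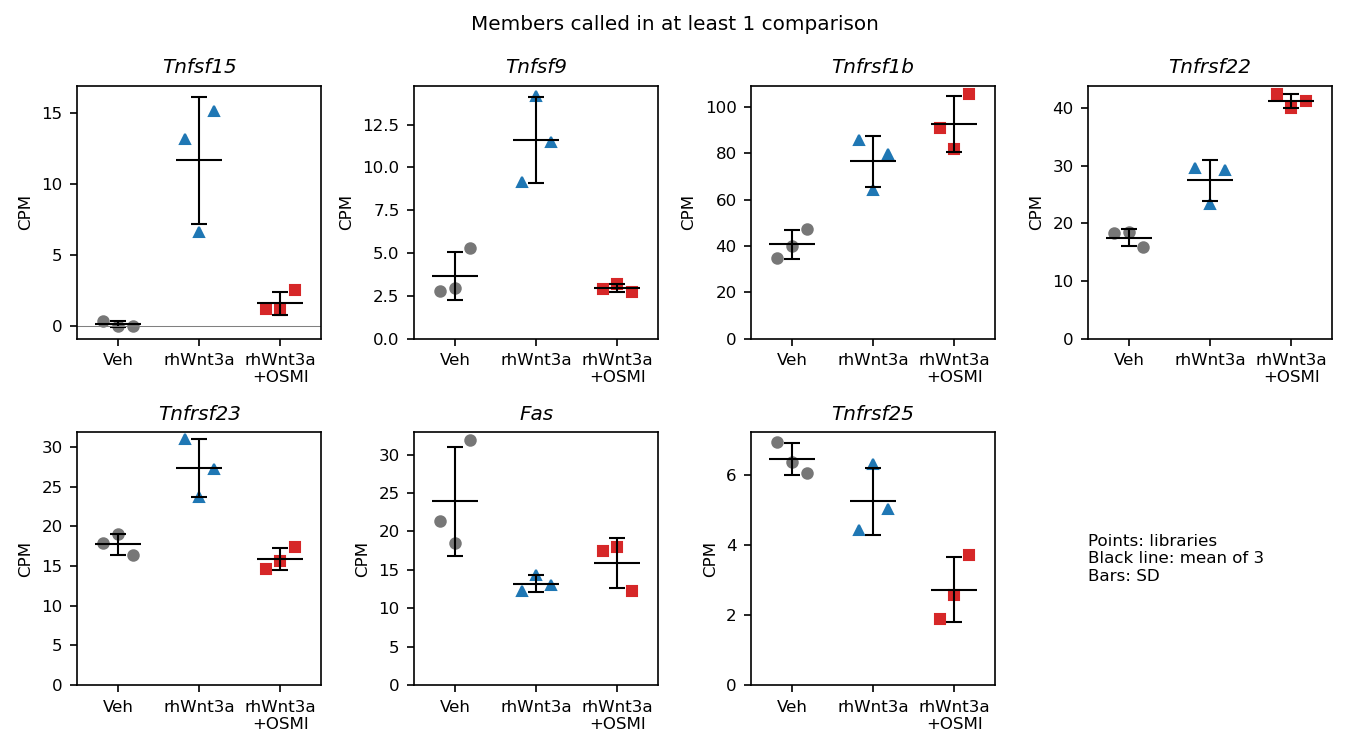
CPM (y axis, from 0) of the 7 members called in at least 1 comparison, by group; each point is 1 library, the long black line the mean of 3 and the bars the SD. Tnfsf15, Tnfsf9 and Tnfrsf23 peak in rhWnt3a, Tnfrsf22 is lowest in Veh and highest in rhWnt3aOSMI, and Tnfrsf25 is lowest in rhWnt3aOSMI.

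Tnfrsf22 and Tnfrsf23 are neighboring mouse genes for decoy receptors of TRAIL, which bind the ligand without a working death domain. They lie on the minus strand of chromosome 7, Tnfrsf22 at 143634806 to 143649661 and Tnfrsf23 at 143665809 to 143685872, beside Tnfrsf26, which had at most 2 counts in any library. The longest coding transcripts were 91.7% identical over 1451 aligned bases. An exon that holds coding sequence in both is printed because the results below turn on telling the genes apart, with the differing bases in capitals (mm10, minus strand, 5′ to 3′). The stretch is at chr7:143643276-143643404 for Tnfrsf22 and at chr7:143679945-143680073 for Tnfrsf23.
Tnfrsf22: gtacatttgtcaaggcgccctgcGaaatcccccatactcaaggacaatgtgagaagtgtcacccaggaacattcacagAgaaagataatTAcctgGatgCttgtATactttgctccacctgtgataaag
Tnfrsf23: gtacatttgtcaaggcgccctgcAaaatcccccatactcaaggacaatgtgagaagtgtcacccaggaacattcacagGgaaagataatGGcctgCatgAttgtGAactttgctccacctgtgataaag
The 129 bases differ at 8 positions. A further coding exon of 74 bases was identical between the genes. Other stretches were closer: the longest identical run was 306 bases, and 55.1% of the longest coding Tnfrsf23 transcript lay in windows of 100 bases with at least 97 bases shared with Tnfrsf22. For Tnfrsf22, 54% of the transcript was near-identical in this way to 21 other genes, Tnfrsf23 among them. How the authors' counting treated reads that match more than 1 gene is not given in the sources used here, so the division of reads within the pair is uncertain and all values below carry that limit.

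In Veh and rhWnt3a the levels of the pair were close to each other. Tnfrsf22 was at 18.3, 18.5 and 15.8 CPM in Veh, at 29.6, 23.4 and 29.3 CPM in rhWnt3a, and at 42.5, 40.0 and 41.2 CPM in rhWnt3aOSMI. The 3 groups did not overlap and each step was upward. Tnfrsf23 was at 17.9, 19.0 and 16.4 CPM in Veh, at 31.0, 23.7 and 27.3 CPM in rhWnt3a, and at 14.7, 15.6 and 17.4 CPM in rhWnt3aOSMI. Here rhWnt3a lay above both other groups, which overlapped. With rhWnt3a the log2 fold changes were 0.65 ± 0.14 for Tnfrsf22 (edgeR adjusted p = 0.0157) and 0.62 ± 0.15 for Tnfrsf23 (edgeR adjusted p = 0.0252). When OSMI was added Tnfrsf22 rose by 0.59 ± 0.14 (edgeR adjusted p = 0.0397) and Tnfrsf23 fell by 0.78 ± 0.15 on the log2 scale (edgeR adjusted p = 0.0177). Against Veh, rhWnt3aOSMI held 1.23 ± 0.14 more Tnfrsf22 on the log2 scale (edgeR adjusted p = 3.92e-04) and differed by −0.16 ± 0.15 in Tnfrsf23 (edgeR adjusted p = 0.497).

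The ratio of Tnfrsf22 to Tnfrsf23 counts, taken within each library and so free of library size, was examined after the values had been seen. It was 1.02, 0.973 and 0.966 in Veh, 0.955, 0.988 and 1.07 in rhWnt3a, and 2.89, 2.56 and 2.36 in rhWnt3aOSMI. Veh and rhWnt3a overlapped near equality, and every rhWnt3aOSMI library lay well above. The mean ratio was 2.61 ± 0.267 in rhWnt3aOSMI and 1.01 ± 0.0618 in rhWnt3a (SD, n = 3), a log2 difference of 1.37. The ratio is given as a description. An exact permutation test gave p = 0.1 for rhWnt3aOSMI against rhWnt3a. This is the smallest value that 3 libraries against 3 allow, so the test could not decide. The calls of the single genes with rhWnt3a and on adding OSMI depended on single libraries. That of Tnfrsf22 for rhWnt3aOSMI against Veh was kept in all 18 alternatives. The rise of Tnfrsf22 when OSMI was added lost its call in 8 of the 9 fits that left out 1 library, all but the one without Veh replicate 3, at edgeR adjusted p of 0.0542 to 0.112, and was 0.48 without the library lying apart in each group, under the fold threshold. Its rise with rhWnt3a lost the call without Veh replicate 1, rhWnt3a replicate 1 or rhWnt3a replicate 3 (edgeR adjusted p of 0.0509 to 0.08). For Tnfrsf23 the rise with rhWnt3a was lost without any 1 Veh library, rhWnt3a replicate 1 or rhWnt3a replicate 3 (edgeR adjusted p of 0.0579 to 0.0993), and the fall with OSMI without rhWnt3a replicate 1 or 3 or rhWnt3aOSMI replicate 1 or 2 (edgeR adjusted p of 0.0704 to 0.0965).

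**Figure D4:**
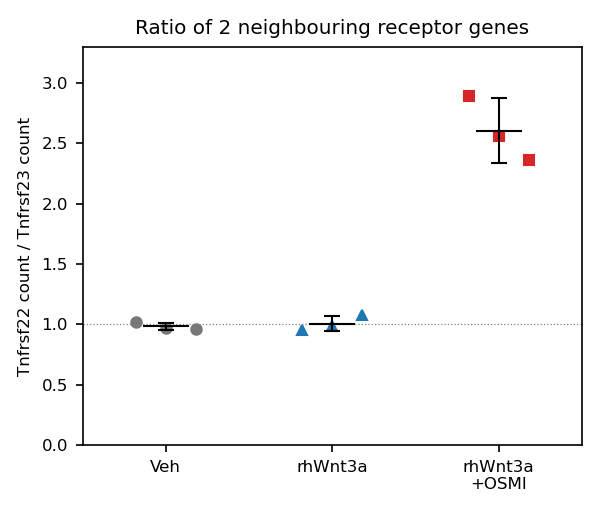
Ratio of Tnfrsf22 to Tnfrsf23 counts (y axis, from 0) in each library by group; points are libraries, the long line the mean of 3 and the bars the SD, with a dotted line at 1. Veh and rhWnt3a libraries lie between 0.955 and 1.07 and rhWnt3aOSMI libraries between 2.36 and 2.89.

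Tnfrsf10b, the mouse death receptor for TRAIL, was at 34.4, 36.4 and 35.6 CPM in Veh, 34.6, 29.4 and 33.6 CPM in rhWnt3a, and 37.2, 38.0 and 34.4 CPM in rhWnt3aOSMI, and was not called. Of its transcript 24.9% was near-identical to other genes. Its log2 fold changes were −0.13 ± 0.12 with rhWnt3a and 0.17 ± 0.12 when OSMI was added. Among the TRAIL receptors the calls thus fell on the decoy genes and not on the signaling one, but the differences between these genes' changes were not tested.

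Fas, the prototype death receptor, lies on chromosome 19 at 34290659 to 34327770, plus strand. It was at 21.4, 18.5 and 31.9 CPM in Veh, at 12.3, 14.4 and 13.0 CPM in rhWnt3a, and at 17.4, 18 and 12.2 CPM in rhWnt3aOSMI. All Veh libraries lay above all others, with Veh replicate 3 the highest, and rhWnt3a and rhWnt3aOSMI overlapped. The log2 fold change was −0.86 ± 0.23 with rhWnt3a (edgeR adjusted p = 0.0432) and −0.59 ± 0.23 for rhWnt3aOSMI against Veh (edgeR adjusted p = 0.109). The call was lost in 7 of the 9 fits that left out 1 library, at edgeR adjusted p of 0.0563 to 0.174, and was kept without Veh replicate 2 and without rhWnt3aOSMI replicate 3. Within the sides of the axis the log2 difference with rhWnt3a was −0.65 and −1.14. Fasl, the ligand of Fas, had at most 1 count in any library.

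Tnfrsf25 (DR3, the death domain receptor for Tnfsf15) lies on chromosome 4 at 152115934 to 152120119, plus strand. It was at 6.96, 6.37 and 6.05 CPM in Veh, at 4.44, 6.31 and 5.03 CPM in rhWnt3a, and at 1.87, 2.58 and 3.73 CPM in rhWnt3aOSMI. Every rhWnt3aOSMI library lay below every other library, and Veh and rhWnt3a overlapped. The log2 fold change for rhWnt3aOSMI against Veh was −1.24 ± 0.26 (edgeR adjusted p = 0.0112), and the difference on adding OSMI was −0.94 ± 0.26 (edgeR adjusted p = 0.0712). The call against Veh was lost without Veh replicate 1 or rhWnt3aOSMI replicate 2 (edgeR adjusted p of 0.0518 to 0.0551). In rhWnt3a the ligand of this pair was thus at its highest level while the receptor differed from Veh by −0.30 ± 0.25 on the log2 scale (edgeR adjusted p = 0.626).

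The remaining tested receptors were low and not called. Tnfrsf21 (DR6), a death domain receptor, was at 1.40, 1.59 and 0.848 CPM in Veh, at 3.35, 2.5 and 3.35 CPM in rhWnt3a, and at 3.27, 1.61 and 3.03 CPM in rhWnt3aOSMI. Its log2 difference of 1.26 ± 0.35 with rhWnt3a lay just past the threshold for a call (edgeR adjusted p = 0.0508). Tnfrsf9 (4-1BB), the receptor of Tnfsf9, averaged 0.719 ± 0.422, 0.96 ± 0.254 and 0.294 ± 0.155 CPM (SD, n = 3) in Veh, rhWnt3a and rhWnt3aOSMI, with a log2 difference of −1.69 ± 0.57 on adding OSMI (edgeR adjusted p = 0.119). Tnfrsf18 (GITR), of which 20.8% of the transcript is overlapped by the antisense gene Gm16008, and Tnfrsf14 (HVEM) averaged 1.66 to 2.56 and 0.552 to 0.714 CPM by group with overlapping libraries. Tnfrsf4 (OX40) had 3 to 13 counts, Cd40 at most 2 and Tnfrsf13c at most 1.

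Genes around the family were examined as 5 lists of 77 genes, of which 73 were tested. The lists were chosen with earlier results of these data known, so their counts are given as a description. With rhWnt3a 25 were called, against 8.78% of all tested genes, 7 of them higher (2.92% of all tested genes) and 18 lower (5.86%), with a median log2 fold change of −0.21 against 0.04 over all tested genes. On adding OSMI 10 were called, against 4.74% of all tested genes, 4 of them higher (1.69%) and 6 lower (3.05%). For rhWnt3aOSMI against Veh 25 were called, against 14.2% of all tested genes, 6 of them higher (4.84%) and 19 lower (9.34%). With rhWnt3a the count was 14 without Veh replicate 2, 12 without rhWnt3a replicate 1 and 13 without rhWnt3a replicate 3. Over all tested genes these fits called 717, 716 and 724 instead of 1230. On adding OSMI the list count was 5 without any 1 rhWnt3a library and 6 without rhWnt3aOSMI replicate 1 or 2. There the calls over all tested genes were 277, 280, 217, 240 and 203 instead of 664. Of the 60 calls 31 were kept in every fit that left out 1 library. With rhWnt3a these were Nfkbie, Timp3, Vcam1, Ccl2, Ccl7, Ccl20, Cxcl5, Lif, Tnfaip6, Mmp3, Mmp13 and Lcn2, and on adding OSMI they were Csf1, Tnfaip6, Mmp3 and Mmp13.

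Of 20 adaptors and kinases 19 were tested, and most were not called. The called ones were 3 with rhWnt3a, against 8.78% of all tested genes, and 1 on adding OSMI, against 4.74%. With rhWnt3a the TRAF adaptors Traf2 (log2 fold change −0.64 ± 0.13, edgeR adjusted p = 0.0137) and Traf5 (−0.88 ± 0.19, edgeR adjusted p = 0.0164) fell, and Ikbkg, the regulatory subunit of IKK, rose by 0.51 ± 0.12 (edgeR adjusted p = 0.0303). Traf4 fell by 0.52 ± 0.11 when OSMI was added (edgeR adjusted p = 0.0311). In the 9 fits that left out 1 library, Traf2 lost its call in 2, Traf5 in 3, and Ikbkg and Traf4 in 7 each. Of 18 alternatives, 5 kept the call of Ikbkg and 7 that of Traf4. Of 11 tested death and survival genes 1 was called with rhWnt3a, near the share of 8.78% of all tested genes. This was Bid, which links caspase-8 to mitochondria and fell (−0.68 ± 0.16, edgeR adjusted p = 0.0299). In rhWnt3aOSMI against Veh 3 of the 11 were called, against 14.2% of all tested genes. Among them the initiator caspase gene Casp8 (−0.69 ± 0.15) was lower and Diablo, an antagonist of apoptosis inhibitors, was higher (0.62 ± 0.17), at edgeR adjusted p of 0.0121 and 0.0362. Leaving out 1 library removed the call of Bid in 4 of 9 fits, that of Casp8 in 1 and that of Diablo in 6. Of 7 genes for shedding of the ligands and receptors, 2 were called with rhWnt3a, against 8.78% of all tested genes. Timp3, an inhibitor of the sheddase ADAM17, rose by 2.13 ± 0.27 (edgeR adjusted p = 9.39e-04). Rhbdf2, a protein needed for ADAM17 maturation, fell by 0.96 ± 0.24 (edgeR adjusted p = 0.0341). Timp3 kept this call in each of the 9 fits that left out 1 library, whereas Rhbdf2 lost it in 6.

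Of 13 NF-kB subunits and inhibitors 6 were called with rhWnt3a, against 8.78% of all tested genes. Rel rose (0.66 ± 0.16), and Nfkb2 (−0.73 ± 0.15), Relb (−0.71 ± 0.17), Nfkbia (−0.68 ± 0.15), Nfkbie (−1.61 ± 0.17) and Tnip1 (−0.79 ± 0.18) fell, at edgeR adjusted p between 3.33e-04 for Nfkbie and 0.0298 for Rel. Nfkbie kept its call in each of the 9 fits that left out 1 library, whereas Nfkb2 and Nfkbia lost theirs in 3 of these fits, Relb in 4, and Rel and Tnip1 in 5. Nfkb2 encodes p100 and Relb its partner in the non-canonical route, whereas Nfkbia and Nfkbie encode inhibitors that NF-kB itself induces. When OSMI was added Nfkb2 (0.81 ± 0.15, edgeR adjusted p = 0.0162) and Nfkbie (0.90 ± 0.17, edgeR adjusted p = 0.0184) rose. Nfkb2 was at 169, 180 and 201 CPM in Veh, 114, 105 and 113 CPM in rhWnt3a and 186, 164 and 232 CPM in rhWnt3aOSMI, so the rhWnt3a libraries lay below both other groups. For rhWnt3aOSMI against Veh, Rel was higher, and Nfkbia, Nfkbie and Tank were lower. Of these calls that of Tank was lost in 8 of the 9 fits that left out 1 library (edgeR adjusted p of 0.0757 to 0.129) and that of Nfkbie in 4 (edgeR adjusted p of 0.0568 to 0.0962).

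NF-kB target genes divided into those that fell and those that rose with rhWnt3a. Of 23 tested targets 13 were called, against 8.78% of all tested genes, in a list chosen with earlier results known. The chemokines Ccl2 (−2.44 ± 0.20), Ccl7 (−2.08 ± 0.26), Cxcl5 (−1.71 ± 0.27) and Cxcl10 (−2.68 ± 0.55) fell, as did the adhesion molecule Vcam1 (−0.93 ± 0.14), the iron-binding protein Lcn2 (−4.25 ± 0.49) and the RNase gene Zc3h12a (−0.59 ± 0.16), at edgeR adjusted p of 0.0423 or less. Ccl20 had 85, 76 and 99 counts in Veh and 2, 0 and 3 in rhWnt3a, at least 29.4-fold lower against a floor of 3 counts per library, and Icam1 had 11, 11 and 16 counts in Veh and 1, 3 and 0 in rhWnt3a, at least 4.28-fold lower. Cxcl10, with 62, 41 and 50 counts in Veh and at most 9 in any other library, Ccl20 and Icam1 passed the count filter only through Veh, the group where they were high, so their part in the count of called targets is not support for a fall of the list. The cytokine Lif (1.95 ± 0.21), the matrix protein gene Tnfaip6 (1.32 ± 0.19) and the matrix metalloproteinases Mmp3 (2.19 ± 0.24) and Mmp13 (1.59 ± 0.20) rose, at edgeR adjusted p of 0.00207 or less. 

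Adding OSMI lowered all 4 of the targets that had risen: Lif (−0.93 ± 0.20), Tnfaip6 (−2.48 ± 0.20), Mmp3 (−2.13 ± 0.24) and Mmp13 (−2.03 ± 0.20), at edgeR adjusted p of 0.0298 or less. The call of Lif was lost in 6 of the 9 fits that left out 1 library (edgeR adjusted p of 0.0646 to 0.12). Those of Tnfaip6, Mmp3 and Mmp13 were lost in none. Vcam1 fell further, by 0.95 ± 0.14 (edgeR adjusted p = 0.00666), while Csf1 (1.34 ± 0.19), a growth factor for macrophages and osteoclast precursors, and Tnfaip2 (0.67 ± 0.13) rose, at edgeR adjusted p of 0.00596 and 0.0208. Tnfaip6 was at 8.31, 7.52 and 9.90 CPM in Veh, 21.7, 24.6 and 17.9 CPM in rhWnt3a and 4.23, 3.04 and 4.25 CPM in rhWnt3aOSMI, so the 3 groups did not overlap. Il6 was called only for rhWnt3aOSMI against Veh, at −3.22 ± 0.70 (edgeR adjusted p = 0.0135). The call was lost without rhWnt3aOSMI replicate 1 or 2 (edgeR adjusted p of 0.0579 to 0.0581). Like Cxcl10, Ccl20 and Icam1, Il6 passed the count filter only with the Veh libraries present, the group where it was highest. The part of these genes in the count called lower for rhWnt3aOSMI against Veh is therefore not support for a fall of the list. Both steps use the same rhWnt3a libraries, so an opposite sign in the second step is not independent of the first.

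**Figure D5:**
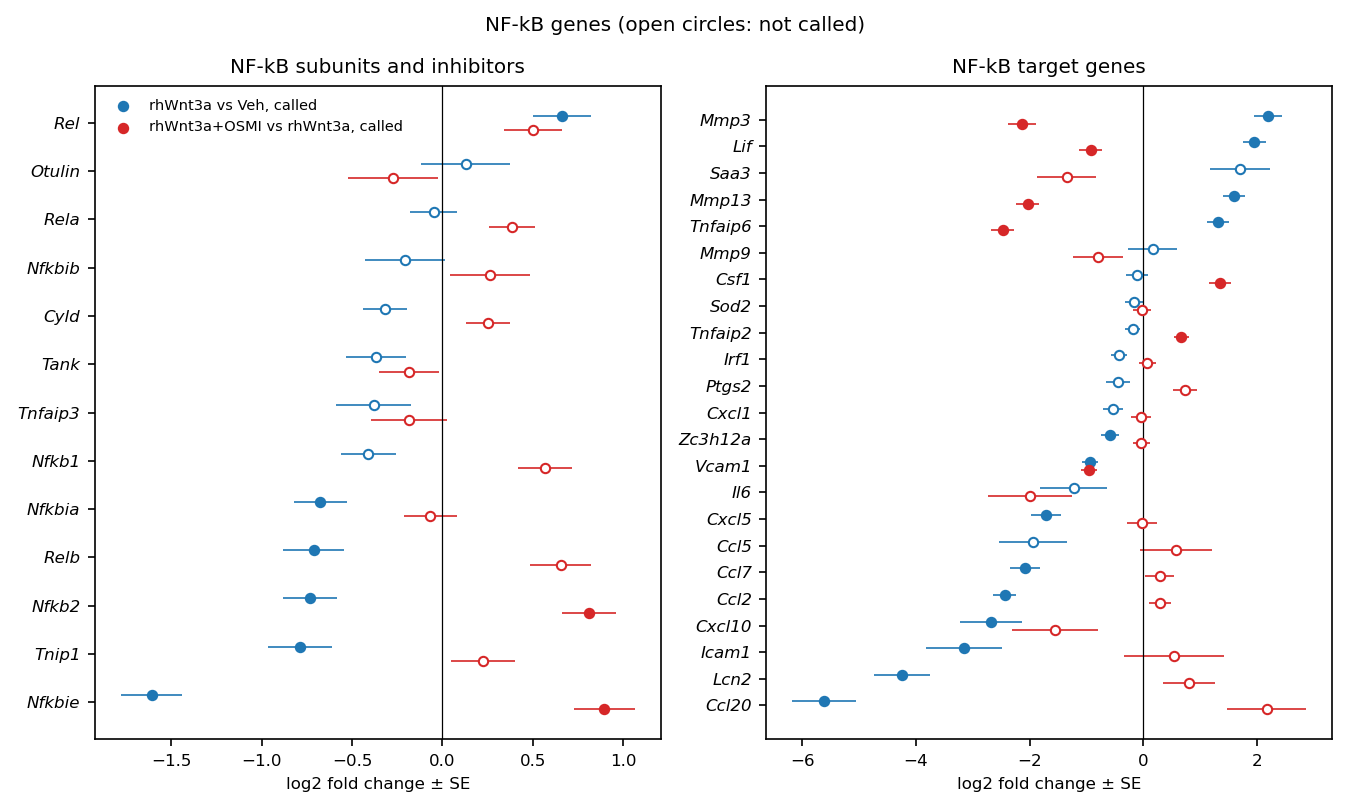
Log2 fold change (x axis) with its standard error (bars) of 13 NF-kB subunits and inhibitors (left) and 23 tested NF-kB target genes (right), for rhWnt3a against Veh in blue and for OSMI addition in red; filled points are called, and the x axes differ. Fitted values of Ccl20 and Icam1, which had 3 counts or fewer in each rhWnt3a library, depend on the fit's prior count. Mmp3, Lif, Mmp13 and Tnfaip6 lie to the right in blue and to the left in red, and Nfkbie and Nfkb2 the reverse.

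Family genes that the name rule leaves out also moved. Apart from the excluded bone regulators, 8 were listed and 5 of these were tested. With rhWnt3a 3 were called, against 8.78% of all tested genes. On adding OSMI 0 were called, against 4.74%, and for rhWnt3aOSMI against Veh 2, against 14.2%. Eda, the ectodysplasin ligand, and its receptor Edar fell with rhWnt3a, with log2 fold changes of −1.21 ± 0.28 and −3.01 ± 0.32, and the related receptor Eda2r rose by 1.39 ± 0.21, at edgeR adjusted p of 0.0222, 3.19e-04 and 0.00277. Edar was at 7.57, 5.86 and 4.81 CPM in Veh, 0.791, 0.796 and 0.658 CPM in rhWnt3a and 1.63, 0.861 and 1.57 CPM in rhWnt3aOSMI. The call of Eda was lost in 5 of the 9 fits that left out 1 library (edgeR adjusted p of 0.0515 to 0.0962). Cd27 and Relt were tested and not called, and Cd70 and Cd40lg had no count in any library. Of the excluded bone regulators, Tnfrsf11b (osteoprotegerin) was at 113, 123 and 110 CPM in Veh, 45.9, 52.6 and 43.9 CPM in rhWnt3a and 48.9, 63.0 and 61.4 CPM in rhWnt3aOSMI, and Tnfsf11 (RANKL) had at most 1 count in any library. Tnfrsf19 had 3, 2 and 1 counts in Veh, 98, 104 and 86 in rhWnt3a and 15, 13 and 30 in rhWnt3aOSMI.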

How the data were processed

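RNA-seq was analyzed in 9 libraries of ST2 cells (3 Veh, 3 rhWnt3a and 3 rhWnt3aOSMI). The submitters' processing notes name CASAVA, fastp, HISAT2 2.0.5 and featureCounts 1.5.0-p3 with the mm10 build. The annotation release, the strand setting and the treatment of multimapping reads are not given in the sources used here. The deposited table holds raw read counts per gene and, beside them, FPKM values that the authors scaled by gene length and library size. Deposited columns of the authors' own comparisons (log2 fold changes and p-values) were not used. Total counts were 16135898 to 17583945 per library, and this depth limits precision for genes with few counts.

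Counts were filtered with filterByExpr (minimum count 10, minimum total 15), normalized by TMM and tested, two-sided, with edgeR 4.0.16 (R 4.3.3) quasi-likelihood fits of all 9 libraries without covariates. The standard error was taken as the log2 fold change over the root of F. CPM use TMM-scaled library sizes. Calls needed a Benjamini-Hochberg adjusted p under 0.05 over all tested genes and a log2 fold change beyond 0.5. Values within the sides of the axis are log2 ratios of mean CPM, with 0.1 added to each mean. Near-identical stretches (windows of 100 bases with at least 97 shared) and the match of Tnfrsf22 to Tnfrsf23 were found with BLAST 2.17.0 in GENCODE M21, where 35 members matched by ID and 34 had the table's coordinates. Promoters are from RefSeq. The script was tested on simulated data. Full values were given for members called in at least 1 comparison and for the 3 ligands and 3 receptors of highest mean FPKM, other tested members were given by fold change or range, and other members by their highest count. List genes were named where called, except 1 that is not reported here. Members and lists were chosen with earlier results of these data known. Alternatives were DESeq2 1.42.0, RLE size factors, other count filters, no fold threshold, unadjusted p, the 6 libraries of a comparison, a replicate block, the side of the axis as a term, and leaving out libraries.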

Additional observations from a re-analysis of the deposited data

How the results depend on the processing

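The 3037 alternative fold change values of the tested members and the called list genes came from 18 settings, and none reversed a called direction: 2738 stayed on the same side of the threshold, 214 lost a call and 85 gained one. Of 1504 values of results not called, 79 changed sign. Leaving out 1 library at a time gave 3 to 6 called members for rhWnt3a against Veh (6 with all libraries), 1 to 4 for OSMI addition (4 with all) and 3 to 4 for rhWnt3aOSMI against Veh (4 with all). For list genes the same fits gave 12 to 28 (25 with all), 5 to 13 (10 with all) and 17 to 28 (25 with all). Over all tested genes they called 716 to 1506 (1230 with all), 203 to 764 (664 with all) and 1218 to 2328 (1986 with all). In what follows, brackets give the calls over all genes in the same setting. With the 6 libraries of the comparison alone, OSMI addition gave 2 members (345 of 13522 genes). With the side of the axis as a term it gave 7 members and 22 list genes (4033 of 14004 genes). With that term rhWnt3aOSMI against Veh gave 8 members (4670 of 14004 genes). By unadjusted p, 7 members were called for rhWnt3aOSMI against Veh (3186 of 14004 genes) and 20 list genes for OSMI addition (2271 of 14004 genes). For OSMI addition DESeq2 called 16 list genes (1244 of 27560 genes) and no count filter 17 (1481 of 27560 genes). Leaving out the library apart in each group gave 24 list genes for OSMI addition (1789 of 14111 genes). Why these counts moved was not tested. Other settings, apart from the replicate block, stayed within 1.5 times the counts with all libraries.

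Replicate numbers are shared between the groups, but nothing says that they mark a shared culture or day, and the deviations of same-numbered libraries correlated from −0.49 to 0.44. With a replicate block, 3 members were called for rhWnt3a against Veh, 2 for OSMI addition and 4 for rhWnt3aOSMI against Veh, and 15, 7 and 20 list genes. Over all 14004 tested genes the block left 809, 233 and 1297 calls. Depth limits the 17 members that failed the count filter.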
